A study of Mus musculus with 10 samples.

Results

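The HOX cluster genes were taken as every line of the deposited expression table whose symbol is Hoxa, Hoxb, Hoxc or Hoxd followed by a number. This gave 39 genes out of 55020 lines, with no filter on their level. Where a symbol stood on more than 1 line, which held for Hoxd4 alone, the line with the highest mean was kept. The tumours were grown for 4 weeks from Hepa1-6 cells, an established mouse hepatoma line, under the skin of C57BL/6 mice, and poly-A RNA was sequenced from each whole tumour. The vehicle group held 5 tumours (replicates 1, 2, 3, 5 and 6) and the GSK343 group, given an inhibitor of the histone methyltransferase EZH2, held 5 (replicates 1 to 5). The series' design text calls them biological replicates. Titles that begin with C were read as vehicle by elimination, since the labels name only the 2 conditions. The labels' protocol also mentions a control antibody and an anti-asialo-GM1 antibody, an agent that depletes natural killer cells. It does not say which tumour received which, so the antibody and GSK343 cannot be told apart here. No dose, duration of treatment, or age or sex of the mice is given in the sources used here.

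HOX genes encode homeodomain transcription factors that set position along the body axis. In mammals they lie in 4 clusters in which the order on the chromosome matches the order of use from the head to the tail, and genes at the same place in different clusters form a paralog group numbered from 1 at the anterior end to 13 at the posterior end. Outside their own domain of the body, HOX genes are kept off by Polycomb complexes. Polycomb repressive complex 2, of which EZH2 is the catalytic subunit, methylates histone H3 along the cluster, and in adult tissues such as the liver much of the clusters is known to carry this mark. Adult fibroblasts and endothelial cells keep HOX codes that reflect their place in the body. No histone mark was measured here, so the HOX genes are Polycomb targets by background knowledge only.

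The values were read as FPKM, fragments per kilobase of transcript, scaled to the number of mapped fragments, which may be compared between genes. They summed to 574547 to 623397 FPKM per tumour, with 13985 to 14714 lines at 1 FPKM or more. The line was recognisable in both groups: Alb, encoding albumin, stood at 3129 ± 318 FPKM in vehicle and 2810 ± 278 FPKM in GSK343 (SD, n = 5 per group), and Afp, encoding the fetal liver protein alpha-fetoprotein, at 2085 ± 197 and 1775 ± 251.6 FPKM. The mitochondrial share of the summed FPKM was 7.17% and 7.11% in replicates 3 and 5 of the GSK343 group, while the remaining tumours had 2.63% to 5.05%, so these tumours were also left out together. No read counts were used. In genes with 1 exon, value times length fell on steps of 19.7 to 26.1 FPKM times bases, and if a step is a single fragment, 1 FPKM in a HOX transcript of the median length of 2269 bases is 87.1 to 115 fragments. This is an inference, and only 50.5% to 53.8% of the low values lay within 0.15 of a whole step, so no counting interval is given.

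A gene was called silent where its mean over the 10 tumours was under 0.1 FPKM, weak from 0.1 to under 1 FPKM, and expressed at 1 FPKM or more. Most of the HOX complement was silent or weak: 12 of 39 genes were silent, 20 were weak and 7 were expressed. Of all 55020 lines, 33757 had any value above 0, 20880 averaged at least 0.1 FPKM and 14496 averaged at least 1 FPKM. Low levels were therefore not particular to the HOX genes. The promoters of 4 genes, picked with their levels known, are printed here as examples, because each pair comes from 1 cluster and has one gene that was expressed and one that was listed at 0. They are the 250 bases before the transcription start in RefSeq (GRCm38.p6), 5′ to 3′ on the gene's strand, with each CpG in capitals, the dinucleotide whose density marks the CpG islands over which Polycomb complexes assemble. Hoxa10 (chr6:52240855-52241104, minus strand) and Hoxa11 (chr6:52245811-52246060, minus strand) are neighbours whose gene bodies lie 1251 bases apart. Hoxd8 (chr2:74704365-74704614, plus strand) and Hoxd11 (chr2:74679308-74679557, plus strand) lie on either side of Hoxd9 and Hoxd10.
Hoxa10: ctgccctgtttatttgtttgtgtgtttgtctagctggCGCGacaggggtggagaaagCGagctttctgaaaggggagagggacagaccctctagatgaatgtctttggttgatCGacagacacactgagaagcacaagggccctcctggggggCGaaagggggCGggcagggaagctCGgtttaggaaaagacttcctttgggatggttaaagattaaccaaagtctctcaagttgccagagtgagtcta
Hoxa11: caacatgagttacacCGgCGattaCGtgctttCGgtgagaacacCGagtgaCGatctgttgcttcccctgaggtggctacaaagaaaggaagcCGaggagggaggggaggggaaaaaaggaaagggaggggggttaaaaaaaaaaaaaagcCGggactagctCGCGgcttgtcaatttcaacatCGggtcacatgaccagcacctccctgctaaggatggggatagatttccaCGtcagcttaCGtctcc
Hoxd8: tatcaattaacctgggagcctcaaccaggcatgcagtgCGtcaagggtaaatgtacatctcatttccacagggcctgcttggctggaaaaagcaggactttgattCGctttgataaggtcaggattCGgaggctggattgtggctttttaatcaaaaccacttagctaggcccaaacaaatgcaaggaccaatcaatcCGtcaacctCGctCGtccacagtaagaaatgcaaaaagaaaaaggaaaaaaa
Hoxd11: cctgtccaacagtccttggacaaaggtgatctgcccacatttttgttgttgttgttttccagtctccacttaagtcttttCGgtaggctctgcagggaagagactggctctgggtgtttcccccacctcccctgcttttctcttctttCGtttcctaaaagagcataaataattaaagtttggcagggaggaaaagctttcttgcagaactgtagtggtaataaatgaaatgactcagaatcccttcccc

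The expressed Hoxa10 had 7 CpG in its window and the silent Hoxa11 had 13. Of the 32851 RefSeq windows of this length, 46.3% held at least 7 CpG and 31.5% at least 13. In the Hoxd cluster the expressed Hoxd8 had 6 CpG, which 50.4% of windows reached, and the silent Hoxd11 had 2, which 81.2% reached. The order of CpG number against level was therefore opposite in the pairs. A comparison of CpG number across all members is void, because a window was matched for only 22 of the 39 by symbol.

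The silent genes sat mainly at the posterior ends of the clusters. Among the posterior paralog groups 9 to 13, 8 of 16 genes were silent, against 3 of 8 in the anterior groups 1 to 3 and 1 of 15 in the central groups 4 to 8. By cluster, 3 of 11 Hoxa genes, 1 of 10 Hoxb genes, 3 of 9 Hoxc genes and 5 of 9 Hoxd genes were silent. These are counts of a state and carry no test. A total of 7 genes were listed at 0 in all 10 tumours, namely Hoxa11, Hoxa13, Hoxb1, Hoxc12, Hoxd11, Hoxd12 and Hoxd13. They include Hoxa13 and Hoxd13, which pattern the digits and the urogenital tract, and Hoxa11 and Hoxd11, which pattern the forearm and kidney. Hoxb1, which specifies a hindbrain segment, was the 1 anterior gene among them.

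**Figure D1:**
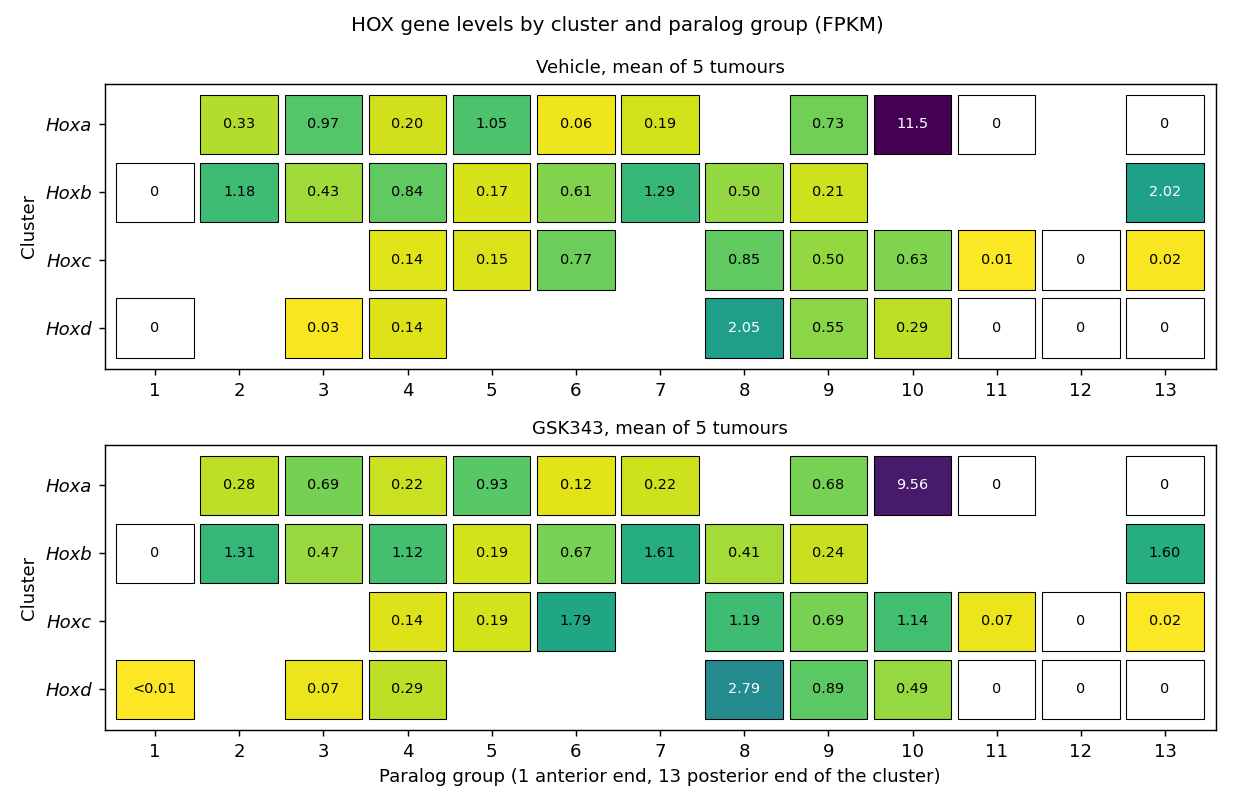
Mean FPKM of 38 HOX genes by cluster (rows) and paralog group (columns), in the 5 vehicle tumours (top) and the 5 GSK343 tumours (bottom); darker means higher, white boxes are 0 and blanks are places with no gene shown. Hoxa10 is the darkest box in both panels, at 11.5 and 9.56 FPKM, and the Hoxd11 to Hoxd13 boxes are 0 in both.

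The other 5 silent genes gave traces. Hoxd1 was listed above 0 only in GSK343 replicate 3, at 0.0325 FPKM. Hoxc13, a regulator of hair and nail keratins, had a mean of 0.0209 FPKM and was listed at 0 in 5 tumours. Hoxc11 had a mean of 0.0431 FPKM and Hoxd3 one of 0.0504 FPKM. Hoxa6 was the silent gene nearest to the threshold, at 0.0894 FPKM, and its 0.221 FPKM in GSK343 replicate 2 was the highest value of any silent gene in any tumour. A mean under 0.1 FPKM over 10 tumours leaves no room for a value of 1 FPKM in any of them. That no silent gene reached 1 FPKM thus follows from the threshold and says nothing about GSK343. Evx1 and Evx2, homeobox genes that flank the posterior ends of the Hoxa and Hoxd clusters, were listed at 0 in all 10 tumours, as were all 6 ParaHox and Cdx genes on the list, the sister homeobox family of the gut and its HOX activators.

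Of the 20 weak genes, Hoxa5 had the highest mean, at 0.987 FPKM. Hoxa2, Hoxa3, Hoxa4, Hoxa5, Hoxa7 and Hoxa9 were weak, with the silent Hoxa6 between them. Hoxa5, a lung and skeletal patterning gene, ranged from 0.836 to 1.29 FPKM over the tumours and Hoxb4, known for its effect on blood stem cell expansion, from 0.690 to 1.25 FPKM. With Hoxc8 at 1.02 FPKM just inside the threshold, and Hoxa5 at 0.987 and Hoxb4 at 0.984 FPKM just outside, the number of expressed genes turned on the threshold: 15 genes had a mean of at least 0.5 FPKM, 2 had at least 2 FPKM, and 3 (Hoxa10, Hoxd8 and Hoxb13) were at or above 1 FPKM in each of the 10 tumours. Hoxd4 was listed at 0 in 5 tumours and at 0.305 to 0.665 FPKM in the other five. Hoxd4 and Hoxd3 overlap on the same strand, and Hoxc5 spans Hoxc10, Hoxc9, Hoxc8 and Hoxc6. The strand setting is not given in the sources used here, and over the 39 genes 23 overlap another annotated gene, so how their reads were shared out is uncertain.

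Hoxa10, a posterior gene known from uterine patterning and from leukaemia (ENSMUSG00000000938.11, mm10 chromosome 6, 52231197 to 52240854), stood apart from every other HOX gene. It measured 8.76, 6.58, 12.1, 15.7 and 14.4 FPKM in vehicle replicates 1, 2, 3, 5 and 6, and 11.9, 10.99, 8.10, 10.7 and 6.09 FPKM in GSK343 replicates 1 to 5. The lowest of these exceeded the highest value of Hoxd8, the next gene in the order, and Hoxa10 was above Hoxd8 in 10 of 10 tumours. Its mean of 10.5 FPKM was 4.36 times that of Hoxd8 and made up 35.9% of the summed FPKM of the 39 genes. Its annotated gene overlaps no other gene. The vehicle and GSK343 values overlapped, with the 3 highest in vehicle and the lowest in GSK343 replicate 5. The groups averaged 11.5 ± 3.81 and 9.56 ± 2.39 FPKM (SD, n = 5 per group). The log2 fold change of GSK343 over vehicle was -0.22 (SE 0.237, 95% interval -0.74 to 0.31, limma adjusted p = 0.652, exact permutation p = 0.429), a difference within the spread between tumours. Without GSK343 replicates 3 and 5 it was 0.02. In bulk RNA, here and below, fewer cells of a type and less RNA per cell cannot be told apart.

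Hoxd8, a central Hoxd gene (ENSMUSG00000027102.4, mm10 chromosome 2, 74704615 to 74707933), was second. It measured 1.60, 3.24, 1.87, 1.58 and 1.96 FPKM in the vehicle tumours and 2.91, 1.79, 2.89, 2.38 and 3.95 FPKM in the GSK343 tumours, in the same order of replicates. Vehicle replicate 2 stood above the other vehicle tumours and inside the GSK343 range, so the groups overlapped. The means were 2.05 ± 0.684 and 2.79 ± 0.794 FPKM (SD, n = 5 per group), a log2 fold change of 0.31 (SE 0.176, limma adjusted p = 0.380). Without GSK343 replicates 3 and 5 it was 0.15, and under quantile normalization 0.19. Hoxd8 overlaps the antisense transcript Hoxd3os1.

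Hoxb13, the most posterior Hoxb gene and a prostate and tail regulator (ENSMUSG00000049604.3, mm10 chromosome 11, 96194316 to 96197447), came next although it lies 74009 bases from Hoxb9, the nearest Hoxb gene. It measured 2.02, 1.54, 1.97, 2.42 and 2.14 FPKM in vehicle and 1.34, 2.12, 1.18, 2.07 and 1.31 FPKM in GSK343. GSK343 replicates 1, 3 and 5 were below every vehicle tumour and the other two were inside the vehicle range. The means were 2.02 ± 0.318 and 1.60 ± 0.452 FPKM (SD, n = 5 per group), a log2 fold change of -0.22 (SE 0.131, 95% interval -0.51 to 0.07, limma adjusted p = 0.400). It was -0.091 without GSK343 replicates 3 and 5 and -0.34 under quantile normalization or with a pseudocount of 0.1. Hoxa10 and Hoxb13 were thus the 2 expressed genes of the posterior groups and also the only expressed genes with a lower mean under GSK343. Of the 32 genes with any value above 0, 8 had a lower mean there. These 8 included the anterior Hoxa2 and Hoxa3 and the central Hoxa5 and Hoxb8.

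The remaining 4 expressed genes lay close together, and none of the neighbours below Hoxa10 in the order of levels had separate ranges over the tumours. Hoxb7, a central Hoxb gene (chromosome 11, 96286623 to 96290162), measured 1.18, 1.97, 1.31, 1.09 and 0.921 FPKM in vehicle and 1.26, 1.45, 1.99, 1.29 and 2.07 FPKM in GSK343. Vehicle replicate 2 and GSK343 replicates 3 and 5 were its high tumours (log2 fold change 0.19, SE 0.141, limma adjusted p = 0.502). Without those GSK343 tumours its log2 fold change was 0.039, and under quantile normalization it was 0.063. Hoxb2, an anterior hindbrain gene (chromosome 11, 96350525 to 96354012), measured 0.760, 1.71, 1.49, 0.664 and 1.29 FPKM in vehicle and 1.56, 1.88, 1.12, 0.247 and 1.76 FPKM in GSK343. Its lowest tumour, GSK343 replicate 4, and its highest, GSK343 replicate 2, were in 1 group. Its log2 fold change of 0.05 (SE 0.237, limma adjusted p = 0.931) changed sign under a pseudocount of 0.1, under quantile normalization and without any 1 of 5 single tumours.

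The 2 expressed Hoxc genes had lower vehicle than GSK343 means. Hoxc6, a central gene of thoracic identity (ENSMUSG00000001661.5, mm10 chromosome 15, 102998257 to 103011881), measured 1.002, 0.427, 0.588, 1.17 and 0.638 FPKM in vehicle and 0.459, 1.48, 2.72, 1.40 and 2.91 FPKM in GSK343. Of the GSK343 tumours 4 were above every vehicle tumour, and GSK343 replicate 1 was below all vehicle tumours but replicate 2. The means were 0.765 ± 0.310 and 1.79 ± 1.02 FPKM (SD, n = 5 per group), a log2 fold change of 0.59 (SE 0.253, 95% interval 0.03 to 1.15, limma p = 0.0399, adjusted p = 0.263, exact permutation p = 0.0635). Without GSK343 replicates 3 and 5 the log2 fold change was 0.24. Hoxc8 (chromosome 15, 102990607 to 102994111), which patterns the thoracic skeleton and motor neurons, measured 0.850, 1.102, 0.684, 0.496 and 1.11 FPKM in vehicle and 1.04, 0.921, 1.497, 0.867 and 1.65 FPKM in GSK343. Only GSK343 replicates 3 and 5 were above all vehicle tumours (log2 fold change 0.25, SE 0.140, limma adjusted p = 0.385). Without those tumours the log2 fold change was 0.083, under quantile normalization it was 0.079, and with a pseudocount of 0.1 it was 0.46.

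**Figure D2:**
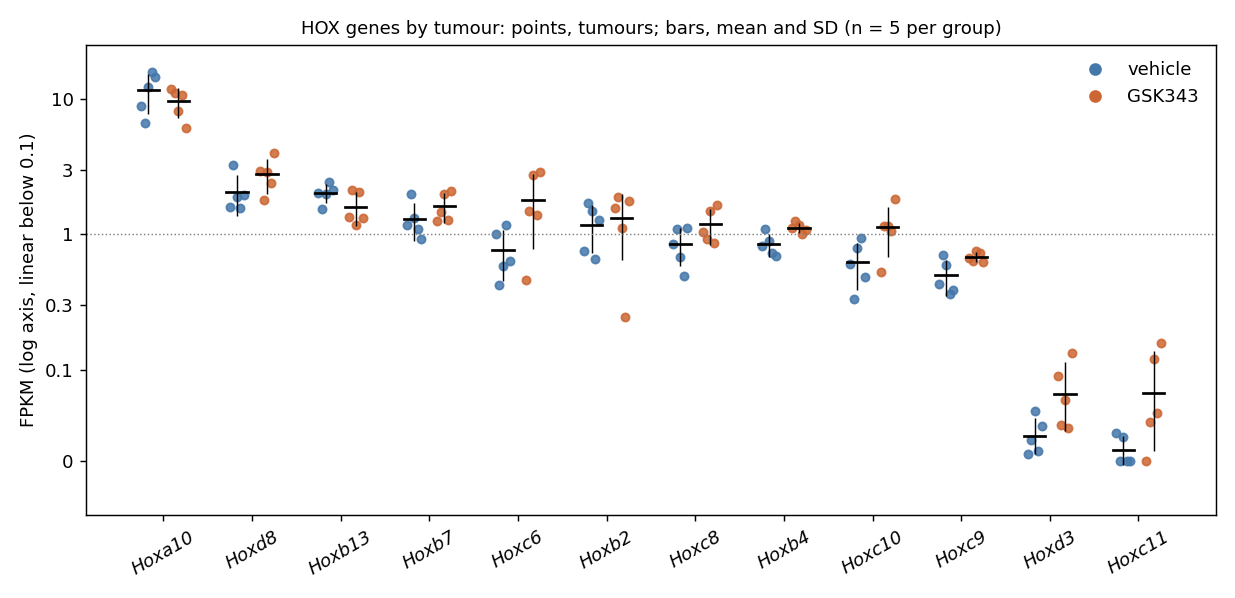
FPKM in each tumour for the 7 expressed HOX genes and the 5 further genes with the smallest p in the fit without a filter, on an axis that is logarithmic above 0.1 and linear below; points are tumours, bars the mean and SD of 5. Hoxa10 lies above all other genes in every tumour, and for each of the 12 genes the vehicle and GSK343 points overlap.

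The comparison of GSK343 with vehicle asks whether the EZH2 inhibitor raised genes held by Polycomb. The limma test on log2(FPKM + 1), at a Benjamini-Hochberg adjusted p under 0.05, called 12 of 14496 lines, which is 0.0828%. Lines entered this test where they averaged 1 FPKM or more. Of the 7 HOX genes that passed this filter, it called 0. At an unadjusted p under 0.05 it had 1 HOX gene, Hoxc6, higher and 0 lower, where 10.7% of all lines were higher and 6.86% lower. Hoxc6 and Hoxc8 averaged under 1 FPKM in vehicle and passed the filter only through the GSK343 tumours, so their direction and the p of Hoxc6 are not independent of the filter, and the 7 do not stand for the 39.

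A fit over all lines with any value above 0, on log2(FPKM + 0.1), took in 32 HOX genes, of which Hoxd1 entered only through GSK343 tumours. It called 4 of 33757 lines (0.0118%) and 0 of the 32, and the smallest adjusted p among them was 0.367, for Hoxd3. At an unadjusted p under 0.05 there were 4 HOX genes, all higher, beside 7.87% of all lines higher and 4.04% lower. No HOX gene had groups that did not overlap, where 1.72% of all lines in this fit had. The log2 fold change was above 0 for 23 of 32 genes, which is 71.9%, beside 53.2% of all lines, and its median was 0.13 beside 0.01. Genes of 1 cluster and tumour share their reads' source and their neighbours, so these counts are a description.

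The genes with the smallest p in that fit were members of Hoxb, Hoxc and Hoxd, and all had higher means in GSK343. They were picked by that p, so their exact permutation p, from the same values, is no second test. Hoxb4 (chromosome 11, 96318267 to 96321638) measured 0.820, 1.09, 0.889, 0.731 and 0.690 FPKM in vehicle and 1.12, 1.25, 1.18, 1.0003 and 1.07 FPKM in GSK343. Vehicle replicate 2 alone reached into the GSK343 range. The means were 0.844 ± 0.159 and 1.12 ± 0.0960 FPKM (SD, n = 5 per group), a log2 fold change of 0.39 (95% interval 0.05 to 0.73, limma adjusted p = 0.373, exact permutation p = 0.0238, unadjusted). Under quantile normalization the log2 fold change was 0.16. Hoxb4 overlaps no other annotated gene.

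Hoxc10, a lumbar motor neuron and hindlimb gene (chromosome 15, 102966796 to 102971893), measured 0.610, 0.333, 0.795, 0.935 and 0.486 FPKM in vehicle and 0.531, 1.15, 1.15, 1.07 and 1.82 FPKM in GSK343. GSK343 replicates 2 to 5 were above every vehicle tumour, as for Hoxc6, and replicate 1 was not. Its log2 fold change was 0.74 (95% interval 0.01 to 1.48, limma adjusted p = 0.418, exact permutation p = 0.0556), and without GSK343 replicates 3 and 5 it was 0.48. Hoxc9 (chromosome 15, 102976439 to 102985099), which sets thoracic motor neuron identity, measured 0.432, 0.710, 0.600, 0.362 and 0.391 FPKM in vehicle and 0.671, 0.637, 0.759, 0.736 and 0.627 FPKM in GSK343. Vehicle replicate 2 lay among the GSK343 tumours and the other vehicle tumours were below them (log2 fold change 0.42, limma adjusted p = 0.430, exact permutation p = 0.0476, unadjusted). Under quantile normalization that value was 0.23.

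Of the 6 genes with the smallest p in this fit, 2 were silent, and their GSK343 means were still under 0.1 FPKM. Hoxd3 (chromosome 2, 74711927 to 74748442) measured 0.00762, 0.0229, 0.0551, 0.0108 and 0.0386 FPKM in vehicle and 0.0940, 0.0396, 0.0667, 0.0359 and 0.133 FPKM in GSK343. Vehicle replicates 3 and 6 overlapped the GSK343 tumours (log2 fold change 0.44, 95% interval 0.06 to 0.81, limma adjusted p = 0.367, exact permutation p = 0.0476, unadjusted). Hoxc11 (chromosome 15, 102954427 to 102957708), a posterior gene that overlaps no other, measured 0.0306, 0, 0.0264, 0 and 0 FPKM in vehicle and 0, 0.0425, 0.120, 0.0524 and 0.159 FPKM in GSK343. GSK343 replicates 2 to 5 were again above all vehicle tumours (log2 fold change 0.58, limma adjusted p = 0.389, exact permutation p = 0.0635), and without replicates 3 and 5 the log2 fold change was 0.23.

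The state differed between the group means for 6 genes. Hoxa6 was silent in vehicle and weak in GSK343 (0.0624 ± 0.0582 and 0.116 ± 0.0825 FPKM in vehicle and GSK343, SD, n = 5 per group), and its 0.116 FPKM was the highest GSK343 mean of any gene that was silent in vehicle. Hoxb4, Hoxc6, Hoxc8 and Hoxc10 were weak in vehicle and expressed in GSK343. Hoxa5 was expressed in vehicle, at 1.05 ± 0.170 FPKM, and weak in GSK343, at 0.928 ± 0.0755 FPKM. Since 0 of the 32 tested HOX genes passed the adjusted threshold, these are descriptions of the means. The share of all lines whose state differed was not computed.

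**Figure D3:**
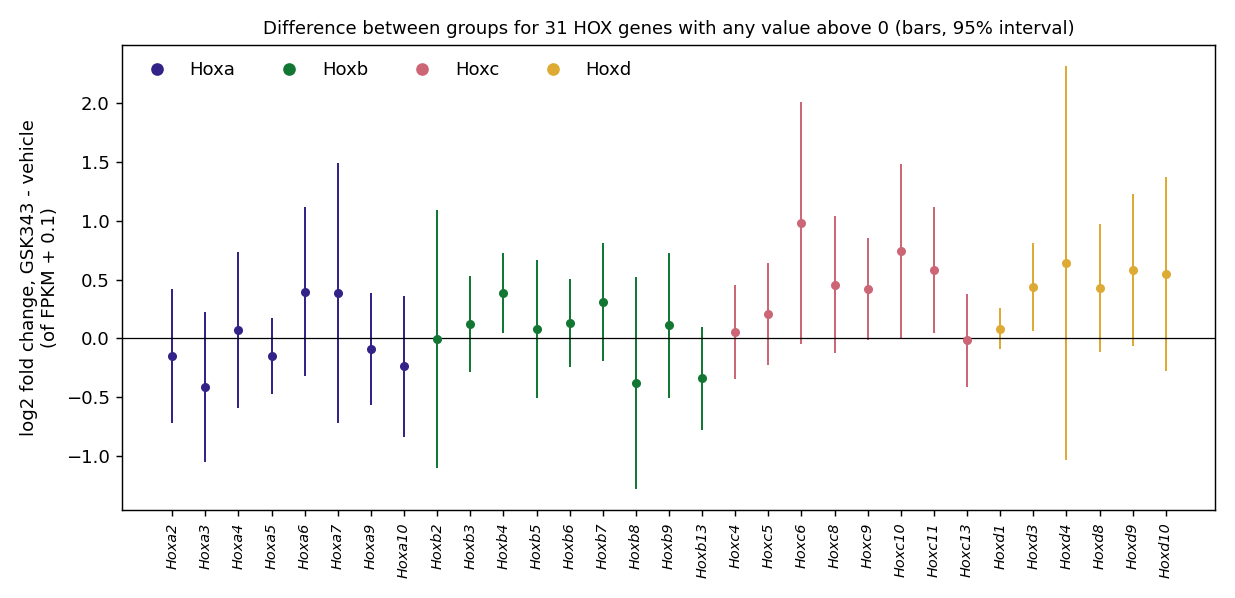
Log2 fold change of GSK343 over vehicle, on log2(FPKM + 0.1), for 31 HOX genes with any value above 0, in the order of the clusters; points are estimates and bars 95% intervals without adjustment. The Hoxc and Hoxd points lie mostly above 0 and the Hoxa points on both sides, and the interval stays clear of 0 for 4 genes: Hoxb4, Hoxc10, Hoxc11 and Hoxd3.

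The direction of the means differed by cluster in number. In Hoxd all 6 genes with any value had a higher mean in GSK343, in Hoxc 7 of 8, in Hoxb 7 of 9 and in Hoxa 4 of 9, and the median log2 fold changes were 0.49, 0.44, 0.11 and -0.09. The difference between clusters was not tested, since genes of a cluster are not replicates. The summed FPKM of the Hoxc genes was 3.18, 2.95, 2.999, 3.28 and 2.90 in vehicle and 2.92, 4.64, 6.59, 4.48 and 7.54 in GSK343. The vehicle sums had a mean of 3.06 and an SD of 0.161 FPKM. In GSK343, replicates 3 and 5 were the highest and replicate 1 lay inside the vehicle range. The summed FPKM of the Hoxd genes was 2.30, 5.01, 2.996, 2.23 and 2.73 in vehicle and 4.94, 2.44, 4.66, 4.02 and 6.60 in GSK343. Vehicle replicate 2 was above all GSK343 tumours but replicate 5 there. The Hoxa sum, mostly Hoxa10, was 15.2 ± 4.01 and 12.8 ± 2.61 FPKM in vehicle and GSK343, and the sum over all 39 genes was 28.5 ± 3.02 and 30.2 ± 0.907 FPKM (SD, n = 5 per group).

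Tumours also hold host cells. Scores of marker lists, each the mean log2(FPKM + 1) of its tested genes, are given here by group. The fibroblast score ranged from 4.43 to 5.05 in vehicle and from 4.68 to 5.67 in GSK343, and 10 of its 15 tested markers were higher and 1 lower at an unadjusted p under 0.05. The leukocyte score ranged from 4.54 to 5.94 and from 5.46 to 6.39, with 9 of 11 markers higher, and the macrophage score from 4.20 to 5.71 and from 5.12 to 5.84, with 8 of 10 higher. The skeletal muscle score ranged from 0.29 to 3.29 and from 2.62 to 5.25, with 9 of 11 higher. The endothelial score ranged from 2.88 to 3.24 and from 3.004 to 3.39, with 1 of 10 higher and 1 lower, and the hepatocyte and hepatoma score from 5.05 to 5.79 and from 4.94 to 5.23, with 0 of 14 higher and 4 lower. The keratinocyte score was highest in vehicle replicates 1 and 3, at 3.03 and 4.57, and ranged elsewhere from 0.44 to 2.55. In these lists 0 markers passed an adjusted p under 0.05 by limma, and 0 were listed at 0 in all tumours.

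Across the 10 tumours the expressed HOX genes fell on opposite sides of these scores. Of 35 pairs of an expressed gene with 1 of 5 scores (fibroblast, endothelial, leukocyte, skeletal muscle, hepatocyte), 17 passed a Benjamini-Hochberg adjusted permutation p under 0.05, and 11 did so on deviations from the group means. The weaker of the passing r were common. With the leukocyte score 12.7% of all lines were at least as high as Hoxc8 (r = 0.71). With the fibroblast score 10.6% were at least as low as Hoxa10 (r = -0.73). The share of all lines that would pass was not computed, so these counts are a description. Hoxb7 rose with the endothelial score (Pearson r = 0.93, permutation p = 1e-04, adjusted p = 0.0031; Spearman rho = 0.92, permutation p = 0.0005). Without the 2 tumours farthest from the median score r was 0.89, and within groups it was 0.92. Hoxd8 did so too (r = 0.88, adjusted permutation p = 0.0089; rho = 0.79, permutation p = 0.0091), at 0.72 without the 2 farthest tumours and 0.84 within groups. Of all 14496 lines, 0.697% were at least as high in r with this score as Hoxb7 and 2.50% as Hoxd8.

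Hoxa10 and Hoxb13 went the other way. Hoxb13 had r = -0.84 with the endothelial score (adjusted permutation p = 0.0089; rho = -0.84, permutation p = 0.0034), -0.87 without the 2 farthest tumours and -0.79 within groups. Hoxa10 had r = -0.86 (adjusted permutation p = 0.0089; rho = -0.78, permutation p = 0.0105) and -0.87 within groups. For Hoxa10 it was -0.68 without vehicle replicate 2 and GSK343 replicate 5 (permutation p = 0.0597), which did not pass 0.05. Of all lines, 1.81% were at least as low as Hoxa10 and 2.42% as low as Hoxb13.

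The leukocyte and fibroblast scores gave the same signs, but for Hoxa10 the leukocyte score did not pass (r = -0.66, adjusted permutation p = 0.0784). That r was -0.81 without the 2 farthest tumours (permutation p = 0.0141) and -0.44 without GSK343 replicates 3 and 5 (permutation p = 0.270). Hoxa10 had r = -0.73 with the fibroblast score (adjusted permutation p = 0.0389). Without the 2 farthest tumours it was -0.47 (permutation p = 0.231), which did not pass 0.05. With the leukocyte score r was 0.87 for Hoxb7, 0.87 for Hoxd8 and -0.87 for Hoxb13 (adjusted permutation p = 0.0089 for each). Of all lines, 6.49%, 6.22% and 2.81% lay at least as far to the same side. With the fibroblast score r was 0.87, 0.86 and -0.84, which 4.93%, 5.24% and 3.45% of lines reached. Those scores differ more between treatments than the endothelial score does, and the within-group values for the fibroblast score were 0.87, 0.81 and -0.77. Against the hepatocyte and hepatoma score Hoxb7 had r = -0.73 and Hoxd8 r = -0.76, values that 8.81% and 7.45% of all lines reached, and within groups neither passed (adjusted permutation p = 0.118 for each). Hoxa10 did not pass with that score (r = 0.42, adjusted permutation p = 0.286). Its r there was 0.92 without the 2 farthest tumours (permutation p = 0.0027) and 0.11 without GSK343 replicates 3 and 5 (permutation p = 0.788). Hoxc6 followed another score: its r was 0.75 with the skeletal muscle score (adjusted permutation p = 0.0251; rho = 0.84, permutation p = 0.0038), and only 0.773% of lines were as high. It was 0.61 without the 2 farthest tumours (permutation p = 0.102) and 0.61 within groups (adjusted permutation p = 0.118), and neither of these passed 0.05. The part of host cells in the levels of the HOX genes was not tested.

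**Figure D4:**
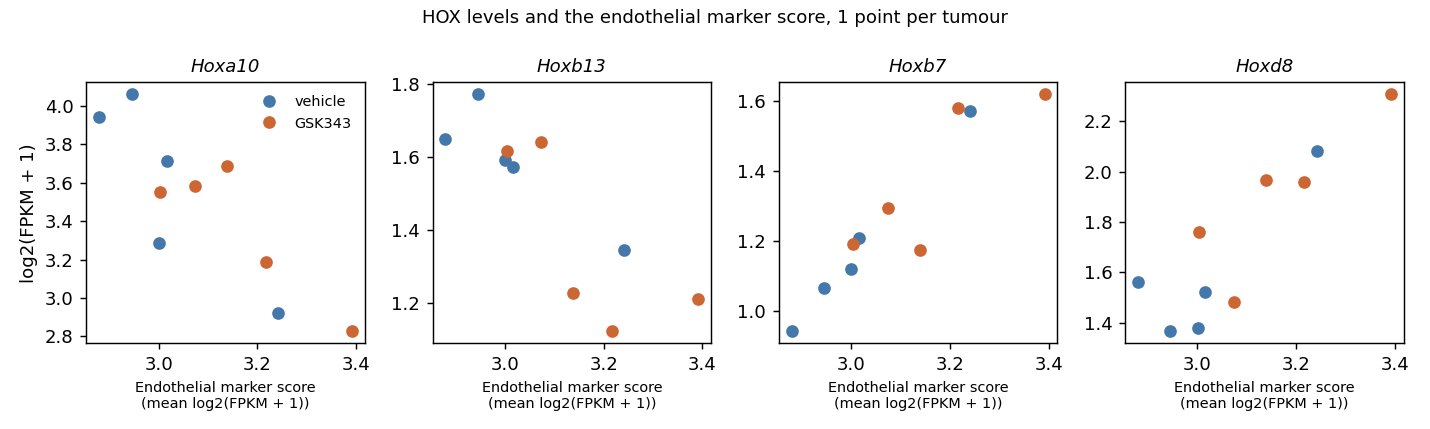
Log2(FPKM + 1) of Hoxa10, Hoxb13, Hoxb7 and Hoxd8 against the endothelial marker score, 1 point per tumour, blue for vehicle and orange for GSK343. The first pair falls with the score (r = -0.86 and -0.84) and the second rises with it (r = 0.93 and 0.88), in tumours of both groups.

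Pairs among Hoxa10, Hoxb13, Hoxb7 and Hoxd8 had the signs of the same division, but not every pair passed. Of 21 pairs of expressed HOX genes, 6 passed an adjusted permutation p under 0.05 on Pearson's r, but 0 did so on Spearman's rho and 0 on deviations from the group means. Hoxa10 with Hoxb13 (r = 0.69, adjusted permutation p = 0.0662) and Hoxa10 with Hoxd8 (r = -0.73, adjusted permutation p = 0.0514) did not pass. The share among pairs of other genes was not computed. The highest was the positive r of 0.81 between Hoxc8 and Hoxd8 (adjusted permutation p = 0.0178; rho = 0.79, permutation p = 0.0085; 0.72 without the 2 farthest tumours). The lowest were -0.88 between Hoxa10 and Hoxb7 (adjusted permutation p = 0.0176; rho = -0.79, permutation p = 0.0087; -0.82 without the 2 farthest tumours) and -0.87 between Hoxb13 and Hoxd8 (adjusted permutation p = 0.0176; rho = -0.76, permutation p = 0.0153; -0.88 without them). Hoxb7 and Hoxb13 of the same cluster had r = -0.76, which was -0.52 without GSK343 replicates 3 and 5 (permutation p = 0.196) and -0.70 within groups.

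Of the noncoding RNAs of the clusters, 17 of 18 on the list were in the table and 5 of these were listed at 0 in all tumours. Halr1, a transcript upstream of the anterior end of the Hoxa cluster, was the only one with a mean of at least 1 FPKM. It stood at 9.16 ± 2.27 FPKM in vehicle and 7.44 ± 1.39 FPKM in GSK343 (SD, n = 5 per group), a log2 fold change of -0.25 (limma adjusted p = 0.440), close to the level of Hoxa10. Hotair, which lies in the Hoxc cluster and is known for recruiting Polycomb complexes, was listed above 0 only in GSK343 replicate 4, at 0.0316 FPKM, and Hottip was listed at 0 in all tumours. Most listed genes of the TALE homeobox family, which includes the cofactors with which HOX proteins bind DNA, were expressed. Of 11 TALE genes 9 were tested, while Pbx4 and Pknox2 averaged under 1 FPKM. Limma called 0 of the 9, with 1 higher at an unadjusted p under 0.05. That gene was Meis3, at 3.21 ± 0.763 and 4.02 ± 0.375 FPKM (limma adjusted p = 0.280). Pbx3 stood at 11.1 ± 2.23 and 8.72 ± 1.08 FPKM (limma adjusted p = 0.304) and Meis2 at 4.51 ± 1.18 and 3.58 ± 0.896 FPKM (limma adjusted p = 0.464).

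The Polycomb genes themselves were transcribed in all tumours. Ezh2, the target of GSK343, measured 47.1, 56.1, 55.3, 67.2 and 50.3 FPKM in vehicle and 41.9, 56.3, 40.6, 44.3 and 40.8 FPKM in GSK343. GSK343 replicate 2 lay among the vehicle tumours and the other four were below them all (log2 fold change -0.30, SE 0.115, limma adjusted p = 0.233). An inhibitor acts on the enzyme and not on its transcript, so this checks no label. Limma called 0 of 10 tested genes of Polycomb repressive complex 2 (0 higher and 1 lower at an unadjusted p under 0.05, median log2 fold change -0.07) and 0 of 18 of complex 1 (0 higher and 1 lower, median -0.09). The lower gene of complex 1 was Rybp, at 11.4 ± 2.30 and 8.28 ± 0.585 FPKM (limma adjusted p = 0.192). Limma also called 0 of 12 Trithorax and demethylase genes, which oppose Polycomb (0 higher and 2 lower, median -0.05), and 0 of 11 retinoic acid receptors and response genes, the pathway that switches on anterior HOX genes (0 higher and 1 lower, median -0.09).

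Other developmental regulators that Polycomb is known to hold in differentiated cells ranged from silent to expressed. Of 77 on the list, 40 had a mean under 0.1 FPKM, 19 of them listed at 0 in all tumours, and 13 were tested. Limma called 0 of the 13, with 1 higher and 2 lower at an unadjusted p under 0.05, and their median log2 fold change was -0.09. The higher one was Tbx15, a mesenchymal T-box factor, at 1.25 ± 0.287 FPKM in vehicle and 2.37 ± 0.788 FPKM in GSK343 (SD, n = 5 per group), a log2 fold change of 0.56 (limma adjusted p = 0.191). The lower ones were Sox9, a biliary and cartilage regulator, at 34.1 ± 8.48 and 23.2 ± 6.21 FPKM (limma adjusted p = 0.218), and Tbx3, a T-box factor of the liver bud, at 21.5 ± 3.21 and 17.6 ± 2.52 FPKM (limma adjusted p = 0.275).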

How the data were processed

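Poly-A RNA of 10 Hepa1-6 tumours was sequenced, 5 per group. Per the submitters' processing notes, the tools were Trimmomatic 0.33, HISAT2 2.1.0 and StringTie 1.3.3b and the genome was mm10; no option, annotation release or strand setting is given in the sources used here. The deposited values carry no unit in the header and were read as FPKM from the values. No read counts were used, and 10 further columns had no name and no values. Gene coordinates are those of the deposited table, and 38 of the 39 HOX genes have the same ones in GENCODE M21.

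The HOX genes, the gene lists and the tests were chosen with earlier results of these data known. Groups were compared on log2(FPKM + 1) with limma 3.58.1 in R 4.3.3, its trend option on, for the 14496 lines that averaged 1 FPKM or more, and with a pseudocount of 0.1 over the 33757 lines with any value above 0. Fold changes on these scales understate the change of low genes. All p-values are two-sided and adjusted over all lines fitted (Benjamini-Hochberg, threshold 0.05). The exact permutation test of a gene ran over every assignment of 5 of the 10 tumours (smallest possible p 0.00794) and is unadjusted. Correlations used 100000 resamples. The limma test was tested on simulated data.

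Values by tumour are given for genes with a mean of at least 1 FPKM and for the 6 with the smallest p in the second fit, and from each other list described up to 3 genes with the smallest p. Replicate numbers were not taken as pairs in the main test: 0 of 8 tumours correlated best with their own number. With so few tumours this check cannot exclude a pairing. Alternatives covered the filter, pseudocount, scaling, variance trend, replicate block, threshold and tumours left out. The values of 1 HOX gene are not reported here singly; it is in the counts and sums. Plots were drawn with matplotlib 3.10.9.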

Additional observations from a re-analysis of the deposited data

Results flagged for a closer look

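Within the groups of 5 tumours, 5 of 74 sets of values (6.76%) had a highest or lowest tumour whose distance to its nearest neighbour took up an unusual share of the range (Dixon's test), where chance gives about 5%. Vehicle replicate 2 was the high tumour in 4 of them. It had 3.24 FPKM of Hoxd8 against 1.58 to 1.96 FPKM in the other vehicle tumours, 0.880 FPKM of Hoxd9 against 0.403 to 0.517 FPKM, and 5.01 FPKM over the Hoxd cluster against 2.23 to 2.996 FPKM. It also had 0.651 FPKM of Hoxa7, where the others had 0 to 0.106 FPKM. These share a tumour, and the Hoxd sum contains the Hoxd genes. GSK343 replicate 5 had 0.0511 FPKM of Hoxb8 against 0.447 to 0.572 FPKM in the other GSK343 tumours, although its neighbour Hoxb7 was highest in that tumour, at 2.07 FPKM.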

How the results depend on the processing

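Limma called 0 HOX genes in each alternative fit and threshold run. Of the 12 genes given by tumour, only Hoxa10 and Hoxb2 changed direction under an alternative, and the cause was not tested. The log2 fold change was 0.022 for Hoxa10 without GSK343 replicates 3 and 5 together. For Hoxb2 it was -0.0037 with a pseudocount of 0.1 (with and without the filter), -0.085 under quantile normalization, -0.032 without GSK343 replicates 3 and 5, and -0.044 to 0.258 without 1 tumour, below 0 without vehicle replicate 1 or 5 or GSK343 replicate 1, 2 or 5. Sizes moved more often: Hoxa10 was -0.083 without GSK343 replicate 5, and quantile normalization took Hoxb4 from 0.39 to 0.16, Hoxc9 from 0.42 to 0.23 and Hoxc8 from 0.25 to 0.079. The number of lines called, 12, was 6 with any value above 0 (and with both Hoxd4 lines summed, an alternative chosen after seeing the data), 7 with a mean of at least 0.1 FPKM, 3 with at least 5 FPKM, 4 with a pseudocount of 0.1 and any value above 0, 7 under quantile normalization, 4 without GSK343 replicates 3 and 5, 6 without vehicle replicates 1 and 3, 33 at an adjusted p under 0.1, and 3 to 96 without 1 tumour, the highest without vehicle replicate 2. The replicate number as a block gave 2 lines. The 7 expressed HOX genes became 15 at 0.5 FPKM, 2 at 2 FPKM, 3 with 1 FPKM in every tumour, and 6 to 8 without 1 tumour. FPKM carries no read count, so the precision of the silent genes is unknown beyond the spread between tumours.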
